A study of Mus musculus with 5 samples.

Results

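The lung library of an RNA polymerase II chromatin immunoprecipitation and sequencing study was compared with brain, kidney, liver and spleen. A window of 250 bp on either side of every lung peak position was counted, and windows that overlapped were merged, which gave 70567 lung windows. Peaks of all 5 tissues together gave 186413 regions. All tissues were freshly dissected from adult FVB mice, an inbred strain with no further allele or treatment named in the labels, while the labels used here name no sex, exact age or number of animals per sample. The same Pol-II antibody was used for every tissue. Each tissue had 1 library, so no difference between tissues had a replicate check and no p-value was computed. The design asks which promoters are in use in which tissue.

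RNA polymerase II transcribes messenger RNAs and many noncoding RNAs. Its reads collect at start sites, where it pauses, and run along the bodies of strongly transcribed genes. Lung tissue is a mixture of alveolar and airway epithelium, a dense capillary endothelium, fibroblasts, smooth muscle and resident immune cells. In such bulk tissue, fewer cells of a type and less polymerase per cell cannot be told apart.

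The lung library held 10846976 reads, and the others held 10292262 to 14964934. Libraries were scaled by the median of ratios over the 8222 regions that reached 20 reads in each library, or alternatively by total reads. Relative to total reads, the first scaling shifted the scaled counts of lung by -0.38 and those of spleen by 0.67 on the log2 scale, so it gives lower ratios of lung over spleen. Intervals of folds and shares are exact binomial (Clopper-Pearson) 95% intervals that cover counting error only, and since the reads carry no molecular identifiers, they cannot be counted as separate molecules.

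Of the 70567 lung windows, 17661 held at least 20 lung reads and entered the comparisons. Lung was at least 4-fold over liver at 3100 of them (17.6%), over brain at 2775 (15.7%), over spleen at 1865 (10.6%) and over kidney at 1145 (6.48%). Kidney was therefore the tissue that lung exceeded at the fewest windows. The median ratio of lung to kidney over these windows was 1.38, against 1.54 for brain, 1.56 for spleen and 1.67 for liver. These windows were chosen at lung peaks, so ratios above 1 follow in part from the choice. With scaling by total reads the order changed, with spleen exceeded at 6733 windows (38.1%), liver at 4633 (26.2%), brain at 2875 (16.3%) and kidney at 1982 (11.2%).

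Against the 4 other tissues pooled, as the mean of their scaled counts, 920 lung windows were at least 4-fold higher (5.21%). Only 235 windows were at least 4-fold over each other tissue (1.33%), and these are called exclusive here. Lung exceeded none of the other tissues 4-fold at 12175 windows, exactly 1 at 3192, exactly 2 at 1424 and exactly 3 at 635. With scaling by total reads, 632 windows were exclusive (3.58%) and 2043 were high against the pool (11.6%).

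**Figure D1:**
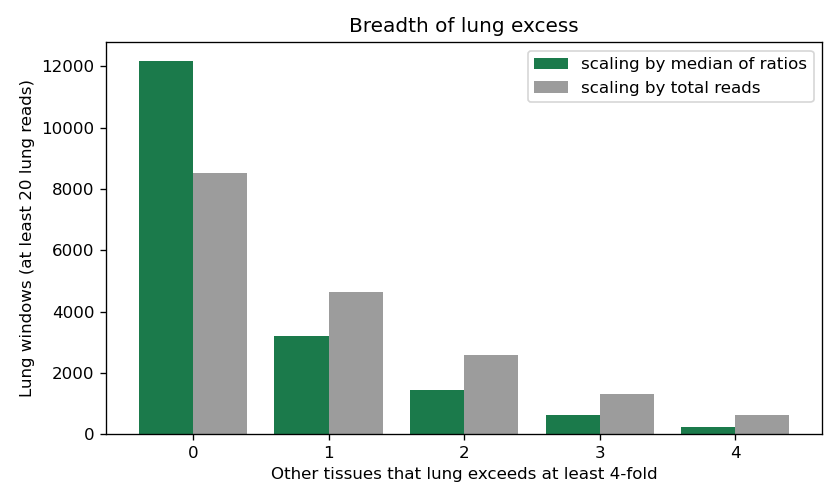
Number of lung windows with at least 20 lung reads (y axis) by how many of the 4 other tissues lung exceeded at least 4-fold (x axis), for both scalings. The bars fall from 12175 windows at 0 tissues to 235 at 4 tissues with the median of ratios, and from 8528 to 632 with total reads.

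Most windows that stood out against the pool but were not exclusive missed the margin in a single tissue, which was not always the same one. Of the 920 windows, 685 were not exclusive (74.5%), and 432 of those were 4-fold over 3 tissues and missed in 1. Kidney was under the 4-fold margin at 337 of the 685 (49.2%) and spleen at 334 (48.8%), against 160 for brain (23.4%) and 122 for liver (17.8%). Kidney alone held back 154 windows and spleen alone 159. With scaling by total reads, kidney held back 60.0% of 1411 such windows, brain 41.3%, liver 17.5% and spleen 17.4%. Kidney was thus a frequent limiting tissue with both scalings, whereas the place of spleen depended on the scaling. Counts under 3 were set to 3 before scaling. With the median of ratios, a window with 22 lung reads and 0 spleen reads was therefore 4.34-fold over spleen. At the minimum of lung reads, no window could reach the margin over spleen with this scaling. Spleen was the next tissue at 90 exclusive windows with this floor and 66 without it, against 100 and 105 with total reads. The part of the floor in the move of spleen was not tested.

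**Figure D2:**
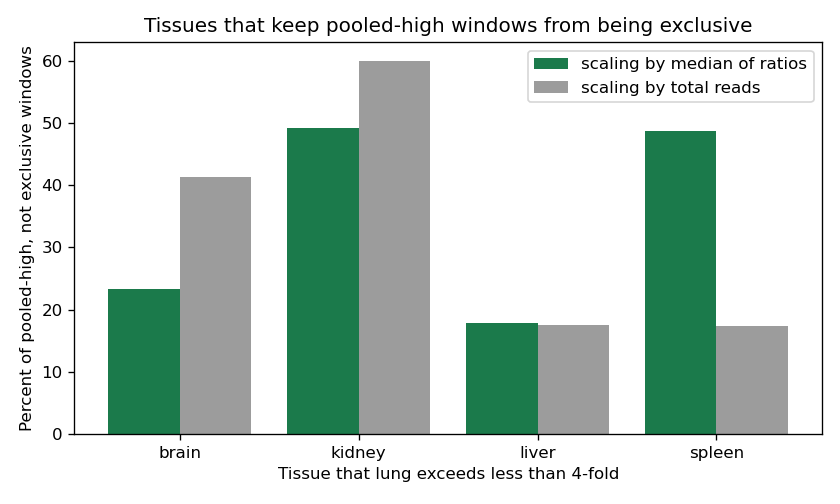
Percent of the windows high against the pool but not exclusive (y axis) at which lung exceeded the named tissue less than 4-fold (x axis), for both scalings; a window can count for several tissues. Kidney stands at 49.2% and 60.0%, while spleen moves from 48.8% to 17.4%. Counts under 3 were set to 3, which limits the fold over spleen most with the median of ratios.

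Peak lists gave a different order of tissues from the read counts scaled by the median of ratios. With scaling by total reads the order was the same. Kidney came closest to lung, then brain, liver and spleen. A peak of another tissue lay in 59.7% of all lung windows (95% interval 59.4 to 60.1) and in 87.6% of those with at least 20 lung reads. Kidney peaks lay in 71.8% of the latter, brain peaks in 66.9%, liver peaks in 55.7% and spleen peaks in 45.9%. Of the 235 exclusive windows, 69 held a peak of another tissue (29.4%), most often brain at 52 windows and least often spleen at 6. The spleen list was also the shortest, with 31139 windows against 55887 to 88467 in the other tissues.

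The 235 exclusive windows held 21 to 345 lung reads with a median of 43, and 133 of them held fewer than 50. Their median fold over the next highest tissue was 4.93 and the highest was 13.8. At the threshold, 39 exclusive windows lay between 4 and 4.2-fold and 48 windows lay just below, between 3.8 and 4-fold. Windows within 5 kb of each other were joined, which gave 129 places. Of these, 92 consisted of 1 window, while 24 places with 3 or more windows held 117 of the 235 windows. The lower bound of the 95% interval of the fold over the next tissue was above 4 at 22 of the 129 places. It was above 2 at 79, so at many places counting error alone reaches below the margin. By scaled counts without a floor, the next highest tissue was brain for 76 exclusive windows, spleen for 66, kidney for 61 and liver for 32. For the 632 exclusive windows with scaling by total reads it was brain for 245, kidney for 180, spleen for 105 and liver for 102.

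The deposited coordinates fit the mouse build mm9, of which no annotation was used. Names given below are general knowledge of where well-known genes lie in mm9, not the result of a lookup. Some names were dropped because a discarded shift of GRCm38 gene positions contradicted them. The names kept were given after the exclusive windows had been seen, so they describe these places and test nothing. They cover 37 loci and 42 of the 129 places, which hold 129 of the 235 windows, and the remaining places are known by position only. No immune gene was among the names, and immune loci among the unnamed places were not identified.

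Promoter sequence is shown for the locus with the most lung reads in exclusive places in each of 5 groups of names, among the 23 of 37 names found in the RefSeq promoter table, to show promoters of each group. Foxf1 and Gprc5a, with more lung reads than the genes shown for their groups, were not matched in that table. The sequences are the 150 bases before the RefSeq start (GRCm38.p6), found by symbol, and were not aligned to the windows. Capitals mark matches on either strand to TATAAA (the TATA box), TGACGTCA (the cyclic AMP response element), TGANTCA (the AP-1 motif), TGTTTAC (a forkhead motif) and CCGGAA (an ETS motif).
Sftpb: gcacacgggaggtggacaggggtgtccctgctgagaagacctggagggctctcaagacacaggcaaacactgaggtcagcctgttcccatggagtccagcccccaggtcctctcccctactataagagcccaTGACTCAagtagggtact
Emp2: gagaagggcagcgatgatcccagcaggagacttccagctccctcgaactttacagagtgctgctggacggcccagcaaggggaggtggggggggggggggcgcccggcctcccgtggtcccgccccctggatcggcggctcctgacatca
Egfl7: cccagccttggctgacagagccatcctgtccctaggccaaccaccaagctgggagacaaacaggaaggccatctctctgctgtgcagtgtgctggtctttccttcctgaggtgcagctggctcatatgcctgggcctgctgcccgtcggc
Fendrr: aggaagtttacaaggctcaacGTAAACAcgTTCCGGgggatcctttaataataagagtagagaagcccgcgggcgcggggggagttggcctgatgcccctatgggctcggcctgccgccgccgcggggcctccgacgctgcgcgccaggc
Nr4a1: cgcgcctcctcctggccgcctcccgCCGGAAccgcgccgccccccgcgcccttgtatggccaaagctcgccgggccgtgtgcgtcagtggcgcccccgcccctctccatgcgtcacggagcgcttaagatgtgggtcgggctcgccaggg
The Sftpb stretch holds an AP-1 match and the Fendrr stretch holds a forkhead match beside an ETS match. Over the 250 bases before the start, 5 of those 23 genes held TATAAA, against 13.0% of 27025 promoters. TGACGTCA was found in 2 of the 23 and in 1.62% of all, TGANTCA in 1 and in 6.87%, TGTTTAC in 1 and in 3.09%, and CCGGAA in 2 and in 12.2%. A match of letters is a description of the sequence and shows no binding.

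Epithelial loci supplied several of the places with the most exclusive windows. At Sftpb, which encodes a surfactant protein needed for breathing, 10 exclusive windows at chr6:72254651-72267751 held 751 lung reads. The other tissues held 84 reads in brain, 72 in kidney, 71 in liver and 48 in spleen, so lung was 8.15-fold over brain (6.49 to 10.3). At Sftpc, the surfactant gene that marks alveolar type 2 cells, 8 windows at chr14:70912221-70923871 held 510 lung reads, against 54 in brain, 32 in kidney, 70 in liver and 49 in spleen. Lung was 6.16-fold over spleen there (4.59 to 8.44). The places were built from windows with a high lung ratio, so their folds are raised in part by that choice. They do not show that lung is the highest library. Over all lung windows of the locus, lung was 6.30-fold over brain at Sftpb and 4.45-fold over liver at Sftpc.

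Sftpa1, another surfactant gene, had 151 lung reads at chr14:41945056-41950856 and 10 to 16 in the other libraries, a fold of 8.94 over spleen (4.73 to 19.02). Slc34a2, the phosphate transporter of type 2 cells, had 429 lung reads at chr5:53453336-53463636 and 29 to 36 elsewhere, 8.75-fold over spleen (6.01 to 13.2). Cbr2, a carbonyl reductase abundant in mouse lung, had the largest fold of the places listed, with 532 lung reads at chr11:120589266-120593166 and 24 to 40 elsewhere. Lung was 12.1-fold over brain at Cbr2 (8.78 to 17.2). Scgb1a1, the club cell secretory gene, had 71 lung reads at chr19:9157041-9158141 and 3 to 11 in the other libraries. Nkx2-1, the transcription factor that specifies lung epithelium, had fewer reads, 97 in lung at chr12:57631076-57637026 and 7 to 11 elsewhere, 8.03-fold over brain (4.30 to 16.6). Emp2, a membrane protein of alveolar type 1 cells, had 144 lung reads in 3 exclusive windows at chr16:10278356-10282856, with 19 in brain, 10 in kidney, 19 in liver and 13 in spleen. Cav1, the caveolin of type 1 cells and endothelium, had 82 lung reads at chr6:17256321-17257621, with 13 in brain, 12 in kidney, 7 in liver and 3 in spleen. At Gprc5a, a receptor gene of lung epithelium, 3 separate places held 41 to 124 lung reads.

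Of the 15 endothelial loci, 9 had 1 exclusive window. Egfl7, an endothelial secreted protein, had the exclusive window with the most lung reads, 345 at chr2:26439281-26439781, against 34 in brain, 54 in kidney, 23 in liver and 15 in spleen. Kidney was the next tissue there and lung was 6.15-fold over it. Tmem100, a bone morphogenetic protein target of endothelium, had 7 exclusive windows with 311 lung reads and 14 to 37 elsewhere. Calcrl, a receptor for adrenomedullin, had 147 lung reads at chr2:84191701-84196101 and 11 to 15 elsewhere, 7.91-fold over spleen (4.29 to 16.2). Smad6, an inhibitor of bone morphogenetic protein signalling, had 222 lung reads at chr9:63796551-63798851 and 10 to 27 elsewhere, 8.22-fold over kidney (5.46 to 12.9). At Cdh5 and Pecam1, which encode junction proteins of all endothelium, 1 window each was exclusive, with 32 and 21 lung reads. Cldn5, a tight junction gene of endothelium, had 158 lung reads at chr16:18776871-18777371 and 35 in brain, the next tissue, a fold of 4.11 that lies just inside the margin. Thbd, an anticoagulant receptor of vessels, had 64 lung reads and 5 to 9 elsewhere, and Cd93, an endothelial surface receptor, had 83 lung reads and 6 to 18 elsewhere. Klf2, a flow-responsive factor of endothelium that lymphocytes also express, had 213 lung reads at chr8:74844121-74848721 and 14 to 24 elsewhere, and spleen was the next tissue at 6.63-fold. Over all its lung windows Klf2 was 2.80-fold over spleen (2.36 to 3.35), and 5.80-fold with scaling by total reads.

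Summed over every lung window in the stretch taken for a locus, which always holds its exclusive places whole, the fold over the next tissue was smaller than in the exclusive places alone at 35 of 37 loci and larger at 1, Ace. The exclusive windows were chosen for a high fold, so a drop follows in part from that choice. Of the 37 loci, 19 were at least 4-fold over the next tissue, with a median of 4.23, and 29 were with scaling by total reads. Each of the 37 held at least 1 exclusive window, so these counts and those by group say nothing of genes without one. Among 15 endothelial loci, 4 reached 4-fold, the median was 3.13, and the next tissue was kidney at 6, spleen at 5, brain at 3 and liver at 1. With scaling by total reads 10 of the 15 reached 4-fold, and the next tissue was brain at 6, kidney at 6 and spleen at 3. Pecam1 was 2.21-fold over spleen (1.44 to 3.52), Epas1, a hypoxia-responsive factor, 2.34-fold over liver and Adgrf5, a receptor of lung epithelium and endothelium, 2.53-fold over kidney. Only 1 of the 80 lung windows at Epas1 was exclusive, and the locus held 2738 reads in lung, 1207 in liver, 1116 in kidney, 610 in brain and 392 in spleen. Of the 6 surfactant and secretory loci, 5 reached 4-fold with a median of 4.37, and Cbr2 was 3.61-fold over liver. No test of the difference between these groups was made, since names were chosen with the windows known. The grouping was set at the same time. Klf2, in the plan an immediate-early gene, was counted as endothelium, and Cav1, also of endothelium, was counted as epithelium.

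**Figure D3:**
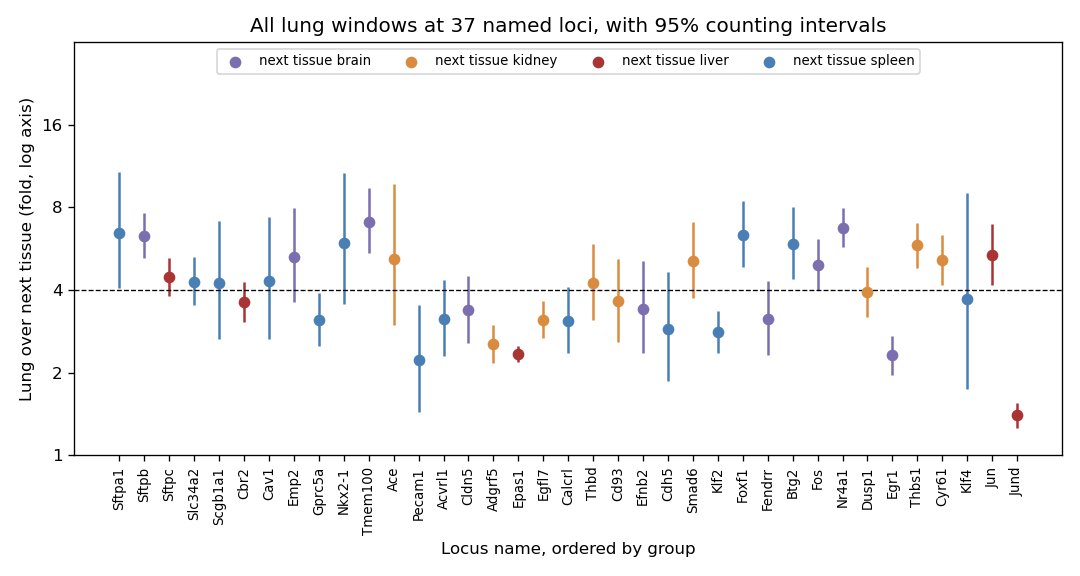
Lung over the next highest tissue (y axis, fold, log scale), summed over all lung windows at each of 37 named loci (x axis), coloured by the next tissue; vertical lines are 95% counting intervals and the dashed line marks 4-fold. The values run from 1.40 at Jund to 7.11 at Tmem100, and 19 loci lie at or above the line.

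Among mesenchymal loci, Foxf1, a forkhead factor of lung mesenchyme and endothelium, had 8 exclusive windows at chr8:123602746-123616246. They held 519 lung reads, against 58 in brain, 51 in kidney, 50 in liver and 40 in spleen, and lung was 7.68-fold over spleen (5.56 to 10.9). The neighbouring noncoding gene Fendrr had 74 lung reads in exclusive windows and 7 to 12 elsewhere. Over all lung windows in its stretch Fendrr was 3.14-fold over brain (2.32 to 4.31).

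Immediate-early genes, which respond within minutes to stimulation, held several of the largest places. Nr4a1, an orphan nuclear receptor, had the most lung reads of all places, 1000 in 7 windows at chr15:101098631-101106731, with 96 in brain, 80 in kidney, 34 in liver and 37 in spleen. Lung was 9.49-fold over brain there (7.69 to 11.8). Thbs1, a matrix glycoprotein, had 622 lung reads at chr2:117938766-117947016 and 84 in kidney, the next tissue, a fold of 7.13 (5.67 to 9.07). Cyr61, a matricellular protein, had 582 lung reads and 109 in kidney, 5.14-fold (4.18 to 6.37). Btg2, an antiproliferative gene, had 473 lung reads and 30 to 59 elsewhere, 7.30-fold over brain (5.56 to 9.75). Fos, which encodes an AP-1 subunit, had 332 lung reads at chr12:86815556-86819406 with 43 in brain, 42 in kidney, 14 in liver and 18 in spleen. Dusp1, a phosphatase of mitogen-activated kinases, had 391 lung reads and 86 in kidney, 4.38-fold. In their exclusive windows Egr1 was 5.94-fold over brain and Jund 5.15-fold over brain. Over all lung windows of the locus, the fold was 6.75 at Nr4a1, 5.88 at Btg2, 5.82 at Thbs1, 5.14 at Cyr61, 4.94 at Fos and 3.93 at Dusp1. By the same measure Egr1 was 2.31-fold over brain and Jund 1.40-fold over liver. Handling and time from dissection are not given per tissue, and their part in these counts was not tested.

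Of the 15 places listed by fold or by reads, 2 have no name here. The place at chr8:86724916-86728166 held 759 lung reads and 123 in kidney, a fold of 5.94 (4.91 to 7.25). The place at chr11:3974556-3979306 held 190 lung reads and 10 to 16 elsewhere, 10.8-fold over brain (6.49 to 19.3).

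**Figure D4:**
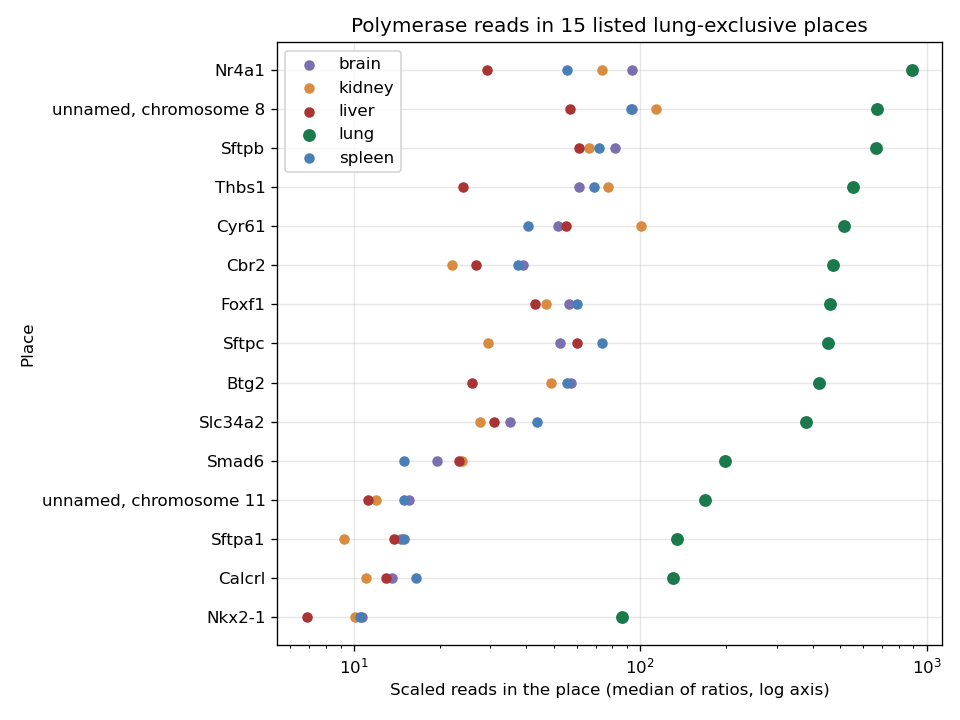
Scaled reads (x axis, log scale, median of ratios) of the 5 libraries in the 15 listed exclusive places, chosen by the largest fold or the most lung reads (y axis). Lung lies to the right in every place by the way the places were chosen; the largest lung count, 1000 reads, is at Nr4a1.

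Single windows with the largest fold against the pool fell mostly in the loci above. For this ratio the floor of 3 counts was set on the mean of the 4 tissues. A window at chr11:3978206-3978706 held 67 lung reads, 8 in brain, 3 in kidney and 0 in liver and spleen, which is 19.5-fold with that floor and 13.5-fold with the floor set in each tissue. A window at Slc34a2 with 83 lung reads and 2 to 5 elsewhere was 19.3-fold and 18.2-fold by these floors. A window at Jun, which encodes an AP-1 subunit, held 76 lung reads and 2 to 5 elsewhere and was 17.99-fold and 16.4-fold. Of the 10 such windows, 3 lay at Nr4a1, 3 at Cbr2 and 2 at Slc34a2. In the opposite direction, the number of lung windows at which lung was at most 0.25 of another tissue was 864 of 12888 for liver (6.70%), 217 of 5327 for spleen (4.07%), 430 of 16285 for kidney (2.64%) and 171 of 11783 for brain (1.45%), among lung windows with at least 20 reads of that tissue. These counts were made with the median of ratios only. The windows lie at lung peaks, so low shares follow in part from that choice.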

How the data were processed

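Reads and peak positions of 5 libraries were used as the authors deposited them: chromosome, start, end and strand of each aligned read, and a single position per peak. Bowtie was used, per the submitters' processing notes, which give no version of it here. No source used here names the peak caller, its threshold or the build. Reads of 34 to 36 bases were counted at their 5′ end. Scaling used medians of ratios, and counts under 3 were set to 3, or for the pool its mean. A window was called at 4-fold with at least 20 lung reads, and calling was tested on simulated data. Named places are the 10 with the largest fold and the 10 with most lung reads, at least 50 lung reads, and the 10 windows with the largest fold over the pool; 1 place chosen by this rule is not reported here. Comparisons, lists and members were chosen with earlier results of these data known.

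No annotation of mm9 was used. Gene names are general knowledge of mm9, given after the exclusive windows were seen. A shift of GRCm38 gene positions onto the peaks was also tried and seen, then discarded, because positions must not be converted between builds. Names that came from it or that it contradicted were dropped. It therefore shaped the list of names and the counts and medians made over that list. No read count or fold of a window or place was computed from it. Of the 37 names, 36 were found in the RefSeq table (GRCm38.p6) and 21 of 21 neighbouring pairs had the same order there. Names that GRCm38 positions contradicted had already been dropped, so this order was partly fixed in advance and does not check single names. The fixed gene lists were not analysed. SciPy 1.17.1, pandas 2.3.3 and NumPy 2.4.6 were used under Python 3.11.15.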

Additional observations from a re-analysis of the deposited data

How the results depend on the processing

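No paired analysis was possible because each tissue has 1 library. Counts moved by over 1.5 times in these cases. With scaling by total reads, 632 windows were exclusive, 2043 were high against the pool, 1982 were high over kidney and 6733 over spleen. Windows of 500 bp to both sides gave 153 exclusive windows and 554 against the pool. With at least 50 lung reads the counts were 102 exclusive and 258 against the pool. They were 470 over brain, 257 over kidney, 461 over liver and 447 over spleen. Fewer windows were counted at this minimum, so these counts fell. The number of windows that entered is not given for this minimum or for the 500 bp windows. Whether the share of windows called rose or fell at these settings therefore cannot be said. Leaving kidney out of the comparison gave 488 windows and leaving spleen out gave 470. Leaving brain out gave 313 and leaving liver out gave 304, both within 1.5 times of 235. Each of these counts can only rise, since fewer tissues had to be exceeded. In a different unit, 40.3% of single lung peak positions had a position of another tissue within 100 bp, against 59.7% of lung windows. The cause of the other changes was not tested. Counting 1 read per position and strand, thinning to the smallest library and shifting reads by 100 bp kept every count of windows within 1.5 times. Setting the floor in each tissue before the mean, an alternative chosen after seeing the data, gave 813 windows against the pool. The comparison of the fixed gene lists, by start site or whole gene, was not run, since no annotation of mm9 was used. With 1 library per tissue, depth limits the low counts most: 133 of the 235 exclusive windows held fewer than 50 lung reads.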
